A study of Homo sapiens with 2 samples.

Results

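The genes described here are HSP90AA1 and HSP90AB1, which encode the cytosolic HSP90 chaperones, the heat shock transcription factor gene HSF1, and 7 genes for chaperones that work with them: DNAJB1, DNAJA1, BAG3, HSPB1, STIP1, CHORDC1 and AHSA1. They were chosen by gene symbol, and all 10 were found among the 61806 genes of the count table. All 10 were also among 13924 genes for which the authors deposited FPKM (a level per gene length and sequencing depth). HEL is a human erythroleukemia line, labelled as wild type and grown in RPMI with fetal bovine serum. One culture received the vehicle, DMSO at 0.5%, and the other received L1, a diindolylmethane derivative, at 1 µM, both over 24 h. The data hold 1 library per condition, so the spread between cultures was not measured, no test was run, and an effect of L1 cannot be told apart from variation between cultures or libraries.

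HSP90 is an ATP-driven chaperone that completes the folding of kinases, steroid receptors and other client proteins. Clients reach it from HSP70 with the help of J-proteins and the adaptor STIP1, and co-chaperones such as AHSA1 set the pace of its ATPase cycle. HSF1 is the main transcription factor of the heat shock response. It is held inactive in part by HSP90 and HSP70, and when released it binds heat shock elements in the promoters of many chaperone genes, several of those described here among them.

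With L1, 5 of the 10 genes were higher than with DMSO by 1.5-fold or more: BAG3, DNAJA1, AHSA1, HSP90AA1 and STIP1. Of the 18123 genes kept (a minimum of 10 counts in either library), 13.8% were this much higher. Of the 6479 well-counted genes (a minimum of 1000 counts in either library, reached by 9 of the 10 genes), 5.19% were. None of the 10 was lower by 1.5-fold or more, against 11.4% of genes kept and 6.22% of well-counted genes. None was 2-fold apart in either direction. The shares past 2-fold were 7.12% higher and 4.83% lower among genes kept, and 2.04% higher and 2.08% lower among well-counted genes. The median log2 ratio of L1 over DMSO was 0.48 for the 10 genes, beside -0.004 for genes kept and -0.03 for well-counted genes. With DESeq2 size factors in place of edgeR's TMM scaling, 3 of the 10 genes passed 1.5-fold. HSP90AA1 and STIP1, both at a log2 ratio of 0.58 with that scaling, then lay just under it. The shares of all genes given above are with TMM scaling. With DESeq2 size factors the median of genes kept was -0.04, and their share past 1.5-fold was not computed.

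Sequencing depth was 32556872 counts with DMSO and 27135647 with L1, and after TMM scaling the DMSO library was 1.16 times as large. The interval beside each single-gene ratio is the exact 95% interval of Clopper and Pearson, in which only counting error enters and not differences between cultures. The erythroid and megakaryocytic markers of HEL were present, with an FPKM of up to 758.7 with DMSO, for HBG2, while CD3E, MS4A1, ALB and EPCAM had 0 counts in both libraries. Among these markers HBG1, which shares sequence with HBG2, had the highest log2 ratio (1.78) and TAL1 the lowest (-0.50). HBG1 and HBG2 both share exon bases on the same strand with AC104389.5, which had 11295 counts with DMSO and 22951 with L1. Reads may have been split between these genes, so the ratio of HBG1 and the level of HBG2 are uncertain. The part of the markers in the ratios below was not tested. In bulk RNA, fewer cells of a kind and less RNA per cell cannot be told apart.

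**Figure D1:**
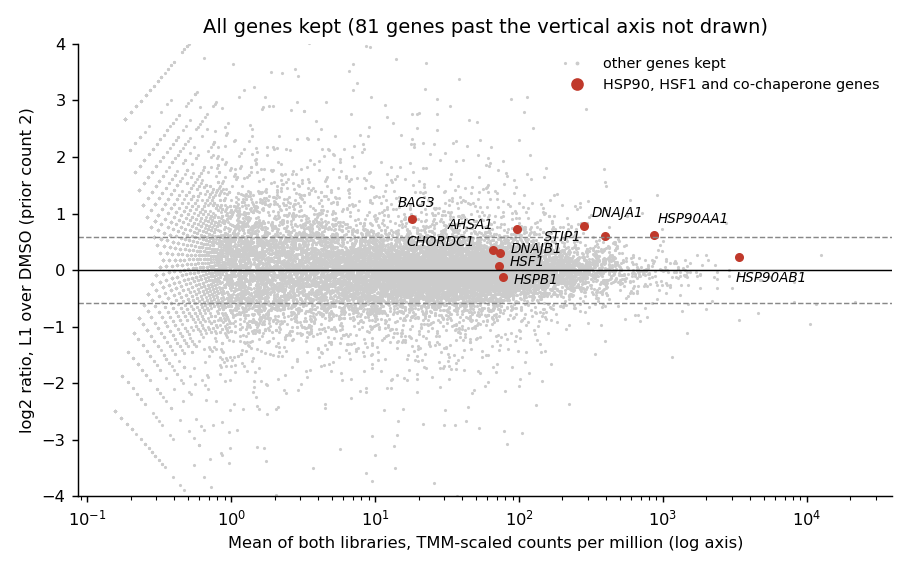
Log2 ratio of L1 over DMSO (vertical axis, with a prior count of 2) against the mean TMM-scaled CPM of both libraries (logarithmic horizontal axis) for every gene kept; grey points are single genes, red points are the 10 genes described here, and dashed lines mark 1.5-fold. The red points lie at or above the solid line at 0 except HSPB1 at -0.12; 81 genes beyond 4 on the vertical axis are not drawn.

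HSP90AB1 (ENSG00000096384, chromosome 6 from 44246166 to 44253888 on GRCh38) encodes HSP90 beta, the form made constantly in most cells. It had 99066 counts with DMSO and 100265 with L1, which was 0.304% and 0.369% of all counts. Its FPKM was 1046 with DMSO and 1227 with L1. The log2 ratio was 0.23, with an interval from 0.22 to 0.24, and 71.1% of all genes kept had a lower ratio. The beta gene was thus higher with L1 by 1.17-fold, a small relative difference on a high level. Other scalings gave log2 ratios outside that interval: 0.20 with DESeq2 size factors, 0.27 with upper quartile scaling and 0.28 with total counts.

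HSP90AA1 (ENSG00000080824, chromosome 14 from 102080738 to 102139699) encodes HSP90 alpha, the more stress-inducible form. It had 21967 counts with DMSO and 29019 with L1, and its FPKM was 136 with DMSO and 208 with L1. The log2 ratio was 0.61, with an interval from 0.59 to 0.64, which is 1.53-fold, and 86.9% of genes kept had a lower ratio. Here too the other scalings lay outside the interval, at 0.58 with DESeq2 size factors, 0.65 with upper quartile scaling and 0.66 with total counts. Both HSP90 genes were higher with L1, and the alpha gene by the larger ratio.

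The balance between both HSP90 genes therefore differed between the libraries. Per length, on deposited FPKM, HSP90AB1 was 7.71 times as high as HSP90AA1 with DMSO and 5.91 times as high with L1. These ratios rest on the gene lengths used for FPKM. On counts, with no length taken into account, HSP90AB1 was 4.51 times as high with DMSO and 3.46 times as high with L1. The share of HSP90AA1 in the summed FPKM of both genes was 11.5% with DMSO and 14.5% with L1. From the counts, the log2 ratio of HSP90AA1 to HSP90AB1 was higher with L1 by 0.38, with a 95% counting interval (normal approximation on the log scale) from 0.36 to 0.41. Because both genes stand in the same libraries, this difference does not depend on how the libraries were scaled.

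Both HSP90 genes have processed pseudogenes that share sequence with them. Of the 31-base words in HSP90AB1 transcripts of GENCODE release 29, 35.7% also occurred in a transcript of another gene, most of them in HSP90AB3P. For HSP90AA1 the share was 25.6%, and the main partner was HSP90AA2P. The 6 HSP90AB pseudogenes of the table held 380 counts with DMSO and 401 with L1, and the 5 HSP90AA pseudogenes held 251 and 287. These counts made up at most 1.13% of the sum of the parent gene and its pseudogenes, and the log2 ratios with pseudogenes added stayed within the counting intervals. How the counting treated reads that align to several genes is not given in the sources used here.

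Together the 10 genes took 0.459% of all counts with DMSO and 0.607% with L1. On the TMM scale this was 4666 CPM (counts scaled to a fixed library size) with DMSO and 5966 with L1, a log2 ratio of 0.35 with an interval from 0.34 to 0.36. The choice of scaling does not enter that interval. HSP90AB1 alone held 66.4% of the counts of the 10 genes with DMSO and 60.9% with L1. Of the gain of 1301 CPM, 41.2% came from HSP90AB1 and 28.0% from HSP90AA1. HSP90AB1, with the smaller ratio of the HSP90 pair, thus held the larger part of the gain.

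**Figure D2:**
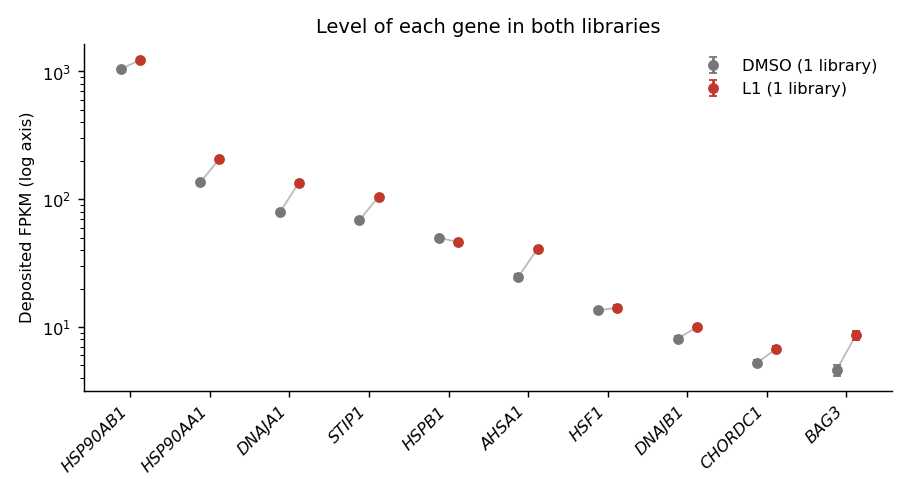
Deposited FPKM (logarithmic axis) of the 10 genes in the DMSO library (grey) and the L1 library (red), ordered by the DMSO level, with bars for the 95% Poisson counting interval. HSP90AB1 stands far above the others at 1046 and 1227, and HSPB1 is the gene whose L1 point lies below its DMSO point.

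The J-proteins deliver clients to HSP70 and stimulate its ATPase. DNAJA1 (ENSG00000086061, chromosome 9 from 33025211 to 33039907), a farnesylated J-protein of the cytosol, had 6701 counts with DMSO and 9879 with L1, and its FPKM was 79.0 with DMSO and 135 with L1. Its log2 ratio was 0.77 (interval 0.73 to 0.82), or 1.71-fold. DNAJB1 (ENSG00000132002, chromosome 19 from 14514770 to 14529770), the J-protein HSP40 that is induced by heat in many cells, had 2108 counts with DMSO and 2232 with L1. Its FPKM was 8.10 with DMSO and 9.94 with L1, and its log2 ratio was 0.30 (interval 0.21 to 0.38). The counting intervals of DNAJA1 and DNAJB1 did not overlap, so the L1 library stood higher by a larger ratio for DNAJA1 than counting error spans.

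Exons of DNAJB1 overlap those of TECR on the opposite strand over 211 bases, and TECR had 4183 counts with DMSO and 3431 with L1. The kit is not described as stranded and the strand setting of the counting is not given in the sources used here, so reads of such partners cannot be told apart. Opposite-strand overlaps of annotated exons were also found for HSP90AA1 with WDR20 (197 bases), HSF1 with DGAT1 (139 bases), AHSA1 with VIPAS39 (83 bases) and CHORDC1 with AP002364.1 (212 bases). HSF1 also overlaps AC233992.1 over 133 bases, with 7 counts with DMSO and 3 with L1. WDR20 had 249 counts with DMSO and 422 with L1, few beside those of HSP90AA1, and AP002364.1 had 28 and 14. DGAT1 had 1231 counts with DMSO and 990 with L1, and VIPAS39 had 673 and 528, which are not few beside the counts of HSF1 and AHSA1. No gene overlapped an exon of any of the 10 genes on the same strand in GENCODE release 29.

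BAG3 (ENSG00000151929, chromosome 10 from 119651370 to 119677819) encodes a nucleotide exchange factor of HSP70 that steers clients to autophagy, and it is a target of HSF1 in many cell types. It had the highest ratio and the fewest counts of the 10 genes, 401 with DMSO and 645 with L1. Its FPKM was 4.61 with DMSO and 8.59 with L1. The log2 ratio was 0.90, which is 1.86-fold, and 91.7% of genes kept had a lower ratio. Its interval, 0.72 to 1.08, was wider than that of the other genes and included 2-fold. None of its 31-base words occurred in another gene.

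STIP1 (ENSG00000168439, chromosome 11 from 64185272 to 64204543), also known as HOP, is the adaptor that holds HSP70 and HSP90 together while a client is passed on. It had 10042 counts with DMSO and 13193 with L1, and its FPKM was 68.7 with DMSO and 105 with L1. Its log2 ratio was 0.61 (interval 0.57 to 0.64), so counting error alone spans both sides of 1.5-fold. STIP1 and HSP90AA1 thus had ratios that counting error does not separate.

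AHSA1 (ENSG00000100591, chromosome 14 from 77457870 to 77469474), the strongest known activator of the HSP90 ATPase, had 2317 counts with DMSO and 3319 with L1. Its FPKM was 24.8 with DMSO and 41.1 with L1, and its log2 ratio was 0.73 (interval 0.65 to 0.81), or 1.66-fold. CHORDC1 (ENSG00000110172, chromosome 11 from 90201160 to 90223364) encodes a zinc-binding HSP90 co-chaperone. It had 1850 counts with DMSO and 2052 with L1, with FPKM of 5.24 with DMSO and 6.74 with L1, and a log2 ratio of 0.36 (interval 0.27 to 0.45). AHSA1 therefore had a higher ratio than CHORDC1, with intervals that did not overlap.

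HSPB1 (ENSG00000106211, chromosome 7 from 76302544 to 76304295) encodes HSP27, a small heat shock protein that holds unfolding proteins without using ATP. It had 2579 counts with DMSO and 2053 with L1, and its FPKM was 49.99 with DMSO and 46.1 with L1. Its log2 ratio was -0.12 (interval -0.20 to -0.03), and it was the one gene of the 10 with an interval below 0. The L1 level was 0.923 times the DMSO level. HSPB1 thus stood apart in direction from BAG3, a protein that binds small heat shock proteins.

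The heat shock elements that HSF1 binds are built from inverted units of GAA and TTC separated by 2 bases. The promoters were searched because HSF1 is the shared regulator of many of these genes. Letters of 2 units (GAANNTTC or TTCNNGAA, where N is any base, each its own reverse complement) and of 3 units in alternation with 2 bases between them were looked for in RefSeq windows of 250 bases before to 50 bases after each annotated start on GRCh38.p14. A 3-unit match always contains overlapping 2-unit matches. Of 35116 windows of all genes, 13.5% held at least 1 match of 2 units and 0.490% held one of 3 units. The table gave 16 windows for 9 of the 10 genes, several genes having more than 1 annotated start, and 8 windows held 2 units and 4 held 3 units. The 4 genes with 3 units were HSP90AA1, HSP90AB1, DNAJA1 and CHORDC1, and their sequences are shown because they carry the densest matches. Each is printed 5′ to 3′ on the strand of the gene, with the matched units and the bases between them in capitals.
HSP90AA1, start 2, chr14:102087104-102087133, minus strand: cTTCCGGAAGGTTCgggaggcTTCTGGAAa
HSP90AB1, start 3, upstream match, chr6:44247770-44247799, plus strand: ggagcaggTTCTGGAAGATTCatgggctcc
HSP90AB1, start 3, downstream match, chr6:44247823-44247852, plus strand: tgagattgTTCTGGAAGCTTCtggattctg
DNAJA1, chr9:33025268-33025297, plus strand: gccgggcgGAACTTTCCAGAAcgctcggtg
CHORDC1, chr11:90223083-90223112, minus strand: ccgGAAAATTCGCGAAGGTTCCTGAAacgc

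The matches began 88 bases before the second annotated start of HSP90AA1, 165 and 112 bases before the most downstream of HSP90AB1, and 60 bases before that of CHORDC1, while the DNAJA1 match began 3 bases after its start. CHORDC1 held 4 overlapping 2-unit matches in a run. DNAJB1 held 2 separate matches of 2 units in front of its start 2, shown here for their contrast with the runs above.
DNAJB1, start 2, upstream match, chr19:14518456-14518485, minus strand: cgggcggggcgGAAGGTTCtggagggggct
DNAJB1, start 2, downstream match, chr19:14518426-14518455, minus strand: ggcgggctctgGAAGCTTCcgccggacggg

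Single matches of 2 units lay in a window of HSPB1 and in the second window of STIP1, while the windows of BAG3 and AHSA1 held none. The 4 genes with 3 units all had log2 ratios above 0: DNAJA1 0.77, HSP90AA1 0.61, CHORDC1 0.36 and HSP90AB1 0.23. BAG3 and AHSA1, with no match, had 0.90 and 0.73. Gene counts do not say which start was used. Across all genes, the 51 other kept genes with a 3-unit match had a median log2 ratio of 0.05, beside -0.01 for the 11385 kept genes with any window. Of these 51 genes, 6 (11.8%) were past 1.5-fold higher and 6 (11.8%) past 1.5-fold lower, while of the 11385 genes 10.8% were past 1.5-fold higher and 9.46% past 1.5-fold lower. Ratios above 0 were found for 52.9% of the 51 genes and 48.9% of the 11385. Among well-counted genes, the 23 others with a 3-unit match had a median of 0.16 and 65.2% above 0. The 5252 well-counted genes with any window had -0.02 and 46.6%. Of the 23 genes, 1 (4.35%) was past 1.5-fold higher and 2 (8.70%) past 1.5-fold lower, beside 5.08% and 5.94% of the 5252. A match is a description of letters in a window, not of a site that HSF1 binds. Only exact letters within the windows were searched. Elements with a changed base or outside the windows were not seen, so an empty window does not mean that a gene lacks them.

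**Figure D3:**
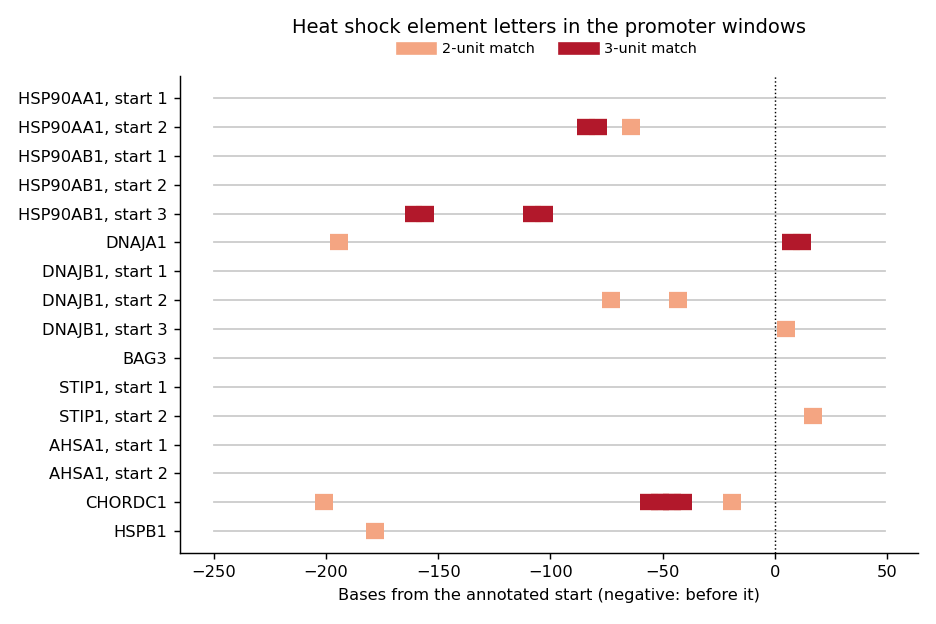
Positions of heat shock element letters in the 16 promoter windows of 9 genes, in bases from the annotated start; light bars are 2-unit matches, dark bars are 3-unit matches, and starts are numbered 5′ to 3′ along the gene. Dark bars stand in 1 window each of HSP90AA1, HSP90AB1, DNAJA1 and CHORDC1, and the windows of BAG3 and AHSA1 are empty.

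HSF1 (ENSG00000185122, chromosome 8 from 144291591 to 144314722) itself had 2271 counts with DMSO and 2059 with L1, and its FPKM was 13.5 with DMSO and 14.2 with L1. The log2 ratio was 0.07 with an interval from -0.02 to 0.16, which includes 0, so no difference was detectable at this depth, and ratios above 0.16 lie outside the interval. In the order of ratios, 57.7% of genes kept had a lower value. HSF1 is mainly controlled through trimerisation and phosphorylation of the protein, which RNA counts do not measure.

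Ordered by FPKM in the DMSO library, the genes ran HSP90AB1, HSP90AA1, DNAJA1, STIP1, HSPB1, AHSA1, HSF1, DNAJB1, CHORDC1 and BAG3. Neighbours in this order had separate Poisson counting intervals except CHORDC1 and BAG3 (5.01 to 5.49 against 4.17 to 5.08). In the L1 library the order was the same but for the last pair, where BAG3 (7.94 to 9.28) stood above CHORDC1 (6.45 to 7.04). The distance of HSPB1 over AHSA1 was 2.02-fold with DMSO and 1.12-fold with L1. With no replicate, a spread between cultures is missing from these intervals.

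Every place in that order rests on the length used for FPKM, which need not be that of the transcripts expressed. The Poisson intervals leave this out. CHORDC1 had 57.8 CPM with DMSO and BAG3 had 12.5, but the lengths behind their FPKM were 11026 and 2719 bases. The place of DNAJB1 also depends on which annotation gave the length. The deposited FPKM of each gene is its count divided by the TMM-scaled library and a gene length, and for 9 of the 10 genes this length was between 0.965 and 1.03 times the summed exon length in GENCODE release 29. For DNAJB1 it was 8134 bases, 2.22 times the 3672 bases of that release. With the GENCODE length DNAJB1 would stand at 17.9 scaled counts per length with DMSO, above HSF1 at 13.4 on the same scale. The ratios between libraries do not depend on the length.

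**Figure D4:**
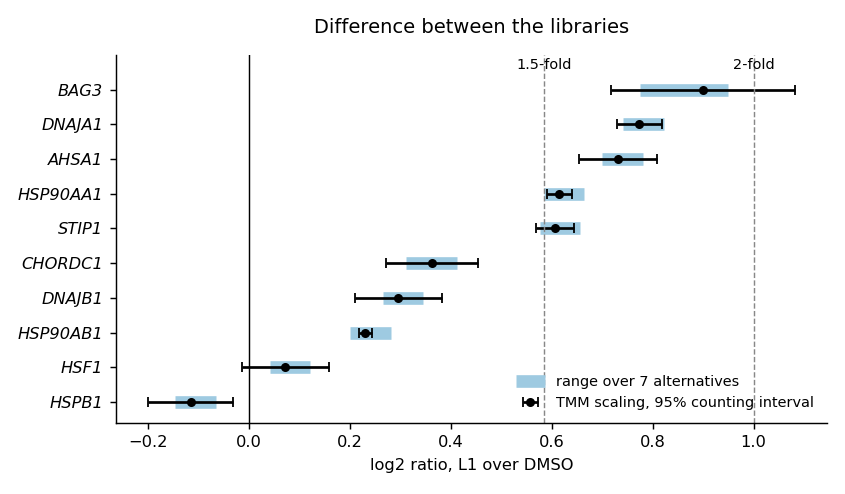
Log2 ratio of L1 over DMSO for each of the 10 genes (points, TMM scaling) with its 95% counting interval (black bars) and the range over 7 alternative computations (blue); dashed lines mark 1.5-fold and 2-fold. The intervals of 8 genes lie above 0, that of HSF1 spans 0 and that of HSPB1 lies below 0.

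Of the other HSP90 paralogs, HSP90B1 of the endoplasmic reticulum had a log2 ratio of 1.33, higher than all 10 cytosolic genes described here, and TRAP1 of mitochondria had -0.06 with an interval that includes 0. A list of 33 further genes, for HSP90 co-chaperones and proteins that bind them, stood close to the background. Its median log2 ratio was 0.06 and 20 of 33 were above 0, beside 49.6% of genes kept and 45.8% of well-counted genes. In it FLCN (log2 ratio 0.61) and AARSD1 (0.60) passed 1.5-fold upward, beside 13.8% of genes kept and 5.19% of well-counted genes. FLCN, the folliculin tumour suppressor, is not itself a co-chaperone. TTI1 (-0.61), which helps HSP90 mature large PI3K-like kinases, passed 1.5-fold downward, beside 11.4% and 6.22%. AARSD1 shares 1267 exon bases on the same strand with the readthrough gene PTGES3L-AARSD1, which had 754 counts with DMSO and 374 with L1, so its reads may have been split and its ratio is uncertain.

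Among 12 HSF family members and regulators of HSF1, 10 had enough counts, 8 of them had ratios above 0, and none was 1.5-fold apart. Ratios above 0 were found for 49.6% of genes kept and 45.8% of well-counted genes. Past 1.5-fold, 13.8% of genes kept were higher and 11.4% lower, and 5.19% and 6.22% of well-counted genes. Their median was 0.16, or 0.10 over those with at least 100 counts, and the values ran from -0.19 for SIRT1, a deacetylase that prolongs DNA binding of HSF1, to 0.50 for VCP, a segregase of the ubiquitin pathway.

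A list of other J-proteins, of the cytosol, the nucleus and the membrane of the endoplasmic reticulum, stood below DNAJA1. Of 15 genes, 14 had enough counts, 5 had ratios above 0, and the median was -0.08. Among genes kept 49.6% had ratios above 0, and 45.8% of well-counted genes. DNAJB4 (0.62), a close relative of DNAJB1, was past 1.5-fold higher, and DNAJB14 had the lowest value (-0.44) among genes with at least 100 counts. DNAJB5, named after its value was seen, was past 1.5-fold lower, with 62 counts with DMSO and 33 with L1. The shares past 1.5-fold higher and lower were 13.8% and 11.4% of genes kept, and 5.19% and 6.22% of well-counted genes.

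In the list of BAG proteins and other nucleotide exchange or HSP70-binding factors, 9 of 10 genes had ratios above 0, with a median of 0.20. The share above 0 was 49.6% among genes kept and 45.8% among well-counted genes. HSPH1, an HSP110 exchange factor, had 1.19, past 2-fold higher, beside 7.12% of genes kept and 2.04% of well-counted genes. BAG5 had -0.32. No BAG family member of this list was 1.5-fold apart, while BAG3 had 0.90. Past 1.5-fold, 13.8% of genes kept were higher and 11.4% lower, and 5.19% and 6.22% of well-counted genes.

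Small heat shock proteins beside HSPB1 were nearly absent. Of 9 genes, 8 had under 10 counts in both libraries, CRYAB and HSPB8 among them with 0 counts in both, where a count of 0 allows up to about 3 counts per library (one-sided 95% limit). HSPB11 carries the family symbol but serves in ciliary transport. It had 3062 counts with DMSO and 2486 with L1, and a log2 ratio of -0.09 (interval -0.16 to -0.01).

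A list of 31 other genes that heat induces through HSF1 in many cells had 28 members with enough counts, and 25 of them had ratios above 0. Among all genes kept 49.6% were above 0, and 45.8% of well-counted genes. The median was 0.32, lower than the 0.48 of the 10 genes and above the -0.004 of genes kept. HSPH1 (1.19), HSPA1B (0.99), HSPA8 (0.82), DEDD2 (0.78) and DNAJB4 (0.62) were past 1.5-fold higher, beside 13.8% of genes kept and 5.19% of well-counted genes. HSPA8, the constitutive HSP70 of the cytosol, had 63271 counts with DMSO and 96639 with L1. HSPA1A was past 1.5-fold lower at -3.67, beside 11.4% of genes kept and 6.22% of well-counted genes. But HSPA1A is nearly identical to HSPA1B and reads may have been split between them. Summed over both genes the log2 ratio was 0.42 (interval 0.31 to 0.52), and without both genes, a choice made after seeing the data, 24 of 26 members were above 0 and 4 were past 1.5-fold higher. The small heat shock protein genes CRYAB and HSPB8, also on this list, had 0 counts.

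**Figure D5:**
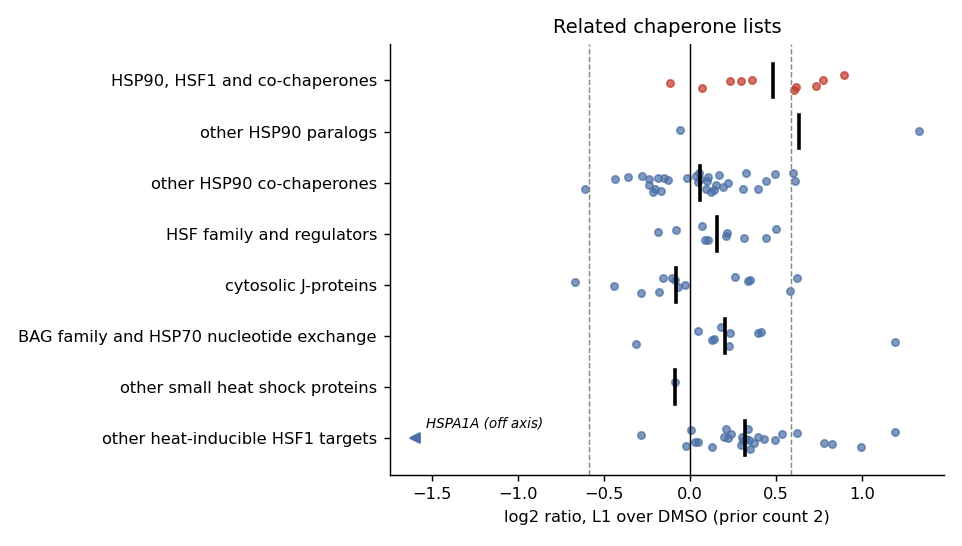
Log2 ratios of L1 over DMSO (with a prior count of 2) of the 10 genes (red) and of the members with enough counts of 7 related lists (blue); black bars are list medians and dashed lines mark 1.5-fold. The red genes have a median of 0.48, the heat-inducible targets 0.32 and the J-proteins -0.08; HSPA1A lies beyond the left end of the axis.

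The 7 related lists share some genes and held 99 different genes in all, 88 of them with enough counts. Of these 88 genes, 58 had ratios above 0, and their median was 0.13. Past 1.5-fold, 8 of the 88 were higher and 3 lower. The shares higher and lower were 13.8% and 11.4% among genes kept, and 5.19% and 6.22% among well-counted genes. Among the 10 genes described here 9 had ratios above 0, and 49.6% of genes kept and 45.8% of well-counted genes did. All of these lists were written with earlier results of these libraries known, so the counts describe them and test nothing.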

How the data were processed

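RNA of 1 DMSO and 1 L1 culture of HEL cells was sequenced as mRNA libraries. Per the labels and the submitters' processing notes, reads were handled with fastp 2.0, aligned to hg38 with HISAT2 2.1.0, and StringTie was used. The annotation and the counting program are not given in the sources used here. The authors deposited raw read counts per Ensembl gene, without normalization, and FPKM values, which equal counts divided by a gene length and the TMM-scaled library. A row of the FPKM files that names no gene was left out.

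Counts were scaled with TMM (edgeR 4.0.16, R 4.3.3). Size factors of DESeq2 1.42.0 served as an alternative. Python 3.11.15 with scipy 1.17.1 gave the intervals. Across genes, log2 ratios used a prior count of 2 and genes with 10 or more counts in either library. Single genes have no prior count. With 1 library per condition no test was possible. The functions were tested on simulated counts. Positions, exon overlaps and 31-base words came from GENCODE release 29, and promoter windows from RefSeq (GRCh38.p14).

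The 10 genes and the gene lists were chosen with earlier results of these data known. Beside the 10 genes, the text names the highest and lowest gene of each list and those past 1.5-fold, where 100 or more counts were found in either library. Alternatives were total counts, DESeq2 and upper quartile scaling, log2(FPKM + 1) and log2(FPKM + 0.1), other minimum and prior counts, and sums with pseudogenes or overlapping genes. The results of some marker genes are not reported here.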

Additional observations from a re-analysis of the deposited data

How the results depend on the processing

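No paired analysis was possible because DMSO and L1 have 1 library each. Of the 70 values of the 10 genes under 7 alternatives, 61 stayed within the counting interval of the gene, 9 moved out of it under another scaling, and none changed sign. The 9 were 4 with total counts, 3 with upper quartile scaling and 2 with DESeq2 size factors, out of 10 values for each scaling. Under the other alternatives the values could hardly move. FPKM rests on the same TMM-scaled library, no gene had a same-strand overlap, and pseudogenes held few counts. The number of genes at least 1.5-fold higher was 5, but 3 with DESeq2 size factors. The median of the 2 other HSP90 paralogs was 0.64, and 0.69 with total counts. It is only the midpoint between HSP90B1 at 1.33 and TRAP1 at -0.06. The median of all genes kept ran from -0.04 to 0.05 over the 4 scalings. All genes past 2-fold numbered 1290 higher and 876 lower, 3544 and 1811 with no filter, and 132 and 135 with a minimum of 1000 counts, where fewer or more genes enter. The median of the HSF family and regulators was 0.16, and 0.10 with a minimum of 100 counts. Counting error is smallest for HSP90AB1 and largest for BAG3, and differences between cultures were not measured.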
